A study of Homo sapiens with 6 samples.

Results

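The genes described here are 36 genes of glucose transport, glycolysis and the hypoxia response, measured in DU145 cells, an established androgen-independent prostate carcinoma line that was grown out of a metastasis in the brain. They were chosen by function and not by their values, from a list of glucose transporters, glycolytic enzymes, regulators of the hypoxia-inducible factor HIF and HIF targets, and read through the probe sets annotated with exactly 1 gene symbol. Of the 36 genes, 34 had such a probe set among the 19775 genes named on the array, with 81 probe sets in all. CA9 and SLC16A3 had none and were not analysed here. ALDOC and EGLN3 lay under the floor of 30 in all 6 arrays, which left 32 measured genes and 64 measured probe sets. The groups were cells given HGF (hepatocyte growth factor, which activates the receptor c-MET) at 25 ng/ml, and cells given vehicle, each sampled at 2, 8 and 24 hours. All of them had been moved a day earlier to RPMI medium with charcoal-treated serum. The 6 conditions had 1 Affymetrix U133plus2.0 array each and no replicate, so a difference within a time point has neither a replicate error nor a p-value. DU145 is a single cell line, and the effect of HGF in other prostate cells is outside these data. The epithelial markers KRT8, KRT18, EPCAM, CDH1 and MET were all measured, while 0 of 3 leukocyte and 0 of 3 endothelial markers were. Of the fibroblast markers 1 of 4 was measured (COL1A1). KLK3 was measured as well, from a list of prostate secretory markers taken to be lacking in DU145.

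Glycolysis splits glucose into pyruvate. Its preparatory steps, run by hexokinase, phosphoglucose isomerase, phosphofructokinase, aldolase and triosephosphate isomerase, consume ATP, and its payoff steps, run by the enzymes from GAPDH to pyruvate kinase, return it. HIF is a pair of subunits of which the alpha subunit is hydroxylated by the EGLN enzymes when oxygen is present and then degraded. In hypoxia, or when growth factor signalling raises its synthesis, HIF binds the core sequence of the hypoxia response element near genes such as those of VEGFA, of glucose transporters and of most glycolytic enzymes.

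Signals are MAS5 intensities, scaled to a mean of 150 per array with values under 30 raised to 30. A gene's log2 ratio is the mean over its probe sets of HGF over vehicle at the same time. A gene passed the selection rule when at least 1 probe set differed 2-fold and the mean log2 ratio was at least 0.5 in the same direction. A ratio with 1 array at the floor is a bound on the difference. Signals are given in the order of 2, 8 and 24 hours, and are compared within a probe set only. The arrays differed in more than their means. The vehicle array of 24 hours had the lowest deposited mean, 149.1, against 186.9 to 205.4 in the others. After scaling, its probe sets with a mean signal of 3000 or more were higher than in the vehicle array of 2 hours by a median log2 ratio of 0.28, and those between 100 and 300 were lower, at -0.22. At 8 hours the median log2 ratio of HGF over vehicle was 0.15 for probe sets between 1000 and 3000 and -0.27 for those between 30 and 100. Many glycolytic probe sets are bright, so values under quantile normalization, which removes such shifts, are given for the results whose call or group median they move most.

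The core of the hypoxia response element reads ACGTG or GCGTG. Both were searched on both strands in windows from 250 bases before to 50 bases after the gene start, taken from RefSeq on GRCh38.p14, to show which genes of the list carry the letters near their start. Windows were held for 31 of the 36 genes (not for SLC2A3, NDRG1, VEGFA, HMOX1 and STC1). The letters were found in 23 of the 31 (74.2%), beside 48.4% of all 35116 windows of that length. The palindrome CACGTG, which overlaps ACGTG and is also the E-box bound by MYC and USF, was found in 4 of the 31 (ALDOC, GAPDH, LDHA and BNIP3), beside 7.26% of all windows. The windows of 4 genes are shown as examples. They are those of PFKFB3 and HK2, whose brightest probe set was above every vehicle array in each HGF array, of PGK1, a classical HIF target, and of BNIP3, which had the most separate stretches of matches of the list and did not pass the selection rule at any time. They were picked after the values were seen. Capitals mark the matches of the motifs.
PFKFB3 (chr10:6144671-6144970, plus strand): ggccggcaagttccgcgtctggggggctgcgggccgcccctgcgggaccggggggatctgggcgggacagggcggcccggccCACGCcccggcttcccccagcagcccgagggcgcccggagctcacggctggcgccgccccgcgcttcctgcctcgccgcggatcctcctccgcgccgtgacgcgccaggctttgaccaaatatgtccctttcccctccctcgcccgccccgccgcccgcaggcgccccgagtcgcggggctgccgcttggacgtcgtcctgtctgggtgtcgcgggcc
HK2 (chr2:74833877-74834176, plus strand): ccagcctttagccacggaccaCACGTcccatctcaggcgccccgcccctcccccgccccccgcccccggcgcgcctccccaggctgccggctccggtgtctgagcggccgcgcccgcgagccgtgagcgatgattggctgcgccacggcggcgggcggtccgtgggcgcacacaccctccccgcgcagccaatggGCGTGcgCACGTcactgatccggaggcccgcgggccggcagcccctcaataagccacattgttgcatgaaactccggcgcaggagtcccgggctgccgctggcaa
PGK1 (chrX:78103998-78104297, plus strand): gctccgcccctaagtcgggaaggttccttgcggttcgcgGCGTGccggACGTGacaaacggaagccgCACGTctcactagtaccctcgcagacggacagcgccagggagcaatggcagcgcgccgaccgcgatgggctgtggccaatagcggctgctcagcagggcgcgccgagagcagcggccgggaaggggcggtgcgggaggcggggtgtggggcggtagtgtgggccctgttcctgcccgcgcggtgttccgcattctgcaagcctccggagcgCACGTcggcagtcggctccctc
BNIP3 (chr10:131981874-131982173, minus strand): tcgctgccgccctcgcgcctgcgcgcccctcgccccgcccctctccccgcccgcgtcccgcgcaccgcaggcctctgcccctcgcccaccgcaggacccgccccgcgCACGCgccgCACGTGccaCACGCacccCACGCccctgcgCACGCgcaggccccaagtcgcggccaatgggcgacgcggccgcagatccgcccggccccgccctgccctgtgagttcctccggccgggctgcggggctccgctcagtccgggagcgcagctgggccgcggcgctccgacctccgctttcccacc
The window of PFKFB3 holds 1 match, which begins 168 bases before the start. That of HK2 holds 3 marked stretches, at 229, 55 and 48 bases before the start, that of PGK1 4 and that of BNIP3 5. The window of HK1 holds 0. The matches describe the letters in these windows, 1 per gene, and do not show binding. Whether the number of matches goes with the response to HGF was not tested.

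STC1, the gene of the secreted hormone stanniocalcin-1, was the only gene of the list that passed the selection rule at all 3 times. Its brightest probe set read 231.6, 344.7 and 920.8 with HGF, against 67.8, 59.9 and 36.2 with vehicle. The next read 89.4, 191.5 and 362.1 with HGF, against 37.0, 50.5 and 48.9 with vehicle. The third read 57.8, 58.0 and 112.6 with HGF and was under the floor in each vehicle array. On all 3 probe sets each HGF array was thus above each vehicle array, and the HGF signal was highest at 24 hours while the vehicle signal stayed under 70. As the third probe set gives bounds, the log2 ratios of the gene were at least 1.33, at least 1.80 and at least 3.15. STC2, the paralogue of STC1, did not follow it. Its first probe set read 243.6, 133.2 and 196.2 with HGF, against 232.7, 330.2 and 192.7 with vehicle. Its other probe set, of lower signal, read 92.9, 94.3 and 140.4 with HGF, against 67.4, 84.3 and 104.2 with vehicle. The probe sets of STC2 disagreed at 8 hours, with log2 ratios of -1.31 and 0.16, and the gene passed the rule as lower at that time (-0.57) but not under quantile normalization (-0.32).

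**Figure D1:**
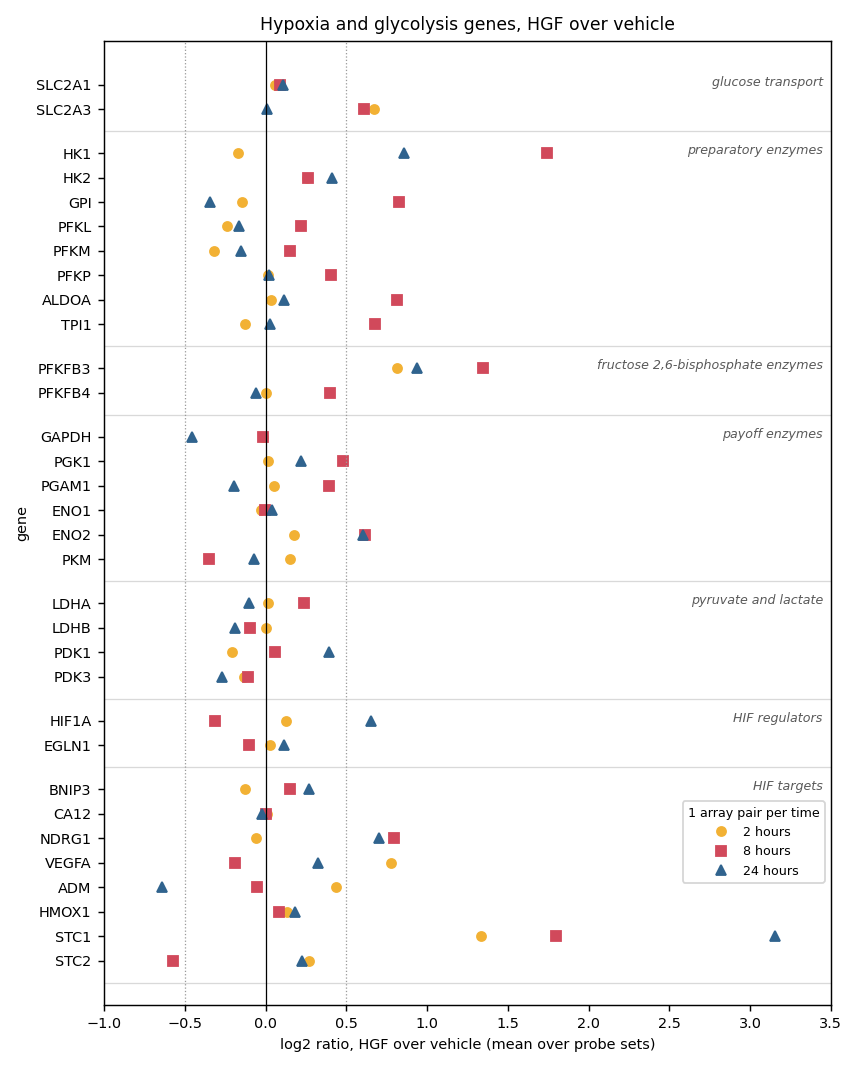
Log2 ratio of HGF over vehicle (x axis, mean over probe sets) of the 32 measured hypoxia and glycolysis genes (y axis, grouped by role) at 2, 8 and 24 hours, 1 pair of arrays per time. Dotted lines mark ratios of -0.5 and 0.5. STC1 reaches 3.15 at 24 hours, most enzymes lie near 0 at 2 and 24 hours, and all 8 preparatory enzymes lie above 0 at 8 hours (the points of HK2 at 2 and 8 hours coincide at 0.26).

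The background is the 10791 genes above the floor in at least 1 array. At 2 hours the rule called 1 of the 32 measured genes higher (0.769% of the background) and 0 lower (0.102%). At 8 hours it called 5 higher (4.92%) and 1 lower (14.6%). At 24 hours it called 1 higher (1.89%) and 0 lower (1.02%). The shares of the list at 2 and 24 hours thus rest on STC1 alone. At 8 hours STC1, HK1, PFKFB3, ALDOA and SLC2A3 passed as higher and STC2 as lower. Under quantile normalization 7 passed as higher and 0 as lower at 8 hours, when 1086 genes of the series were higher and 998 lower instead of 531 and 1571. HK2 and PFKFB4 were the 2 additional genes. With the vehicle arrays of 2 and 24 hours averaged as the comparator, 3 passed as higher at 8 hours (HK1, PFKFB3 and STC1) and 0 as lower, when 280 genes of the series were higher and 544 lower. The median log2 ratio of the 32 measured genes followed the order 0.02, 0.18 and 0.07, beside -0.02, -0.02 and 0.01 for the background. Between vehicle arrays, without HGF, 0 of the 32 genes passed for 8 over 2 hours, 24 over 2 hours or 24 over 8 hours, where 0.519%, 0.259% and 0.454% of the genes above the floor passed as higher and 0.361%, 2.13% and 5.44% as lower.

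The glucose transporters showed small or dim signals. SLC2A1, the main transporter of proliferating cells, read 324.1, 341.6 and 317.4 with HGF, against 298.3, 303.3 and 273.0 with vehicle on its measured probe set. Each HGF array was above each vehicle array, but by log2 ratios of only 0.12, 0.17 and 0.22 on that probe set, and SLC2A1 did not pass the rule. SLC2A3, a transporter of high affinity, has 3 dim probe sets. The brightest of them read 84.3, 51.0 and 55.6 with HGF, against 46.7, 32.5 and 51.1 with vehicle. For the gene the log2 ratios were 0.67, at least 0.61, and 0.01. Its call at 8 hours came from a probe set that read 63.2 with HGF and was under the floor with vehicle, and with a floor of 60 the ratio at 8 hours was 0.02. On each of the 3 probe sets the HGF and vehicle arrays of SLC2A3 overlap.

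Among the enzymes that commit glucose to glycolysis, PFKFB3 stood apart from vehicle at each time. It makes fructose 2,6-bisphosphate, the activator of phosphofructokinase. Its single probe set read 329.9, 389.2 and 300.9 with HGF, against 188.1, 153.3 and 156.8 with vehicle. The 3 HGF values lay between 300.9 and 389.2 and the 3 vehicle values between 153.3 and 188.1. The log2 ratios were 0.81, 1.34 and 0.94, of which the ratio at 8 hours passed the rule. PFKFB4, which makes the same activator, read 96.1, 114.5 and 115.6 with HGF, against 95.6, 65.8 and 125.5 with vehicle. Its HGF and vehicle arrays overlap.

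The hexokinases, which trap glucose in the cell, followed different courses. HK1 read 430.1, 928.3 and 650.6 with HGF, against 485.1, 277.3 and 359.3 with vehicle. The log2 ratios of HK1 were -0.17, 1.74 and 0.86, while the vehicle arrays themselves differed by log2 ratios of -0.81 for 8 over 2 hours and -0.43 for 24 over 2 hours. With the other vehicle arrays averaged as the comparator, HK1 was at 1.15 at 8 hours. The brightest probe set of HK2, the isoform that HIF and growth factors regulate, read 192.0, 237.3 and 289.9 with HGF, against 133.1, 137.3 and 135.9 with vehicle. On this probe set the vehicle values stayed between 133.1 and 137.3 while each HGF value was above them, with log2 ratios of 0.53, 0.79 and 1.09. The other probe sets of HK2 lie near the floor, between 22.0 and 64.5 in all arrays, and had log2 ratios between -0.33 and 0.32. Averaged over the 3 probe sets, HK2 was at 0.26, 0.26 and 0.41 and did not pass, while on the brightest probe set alone it passed at 24 hours. The study's own list of genes regulated by HGF at 24 hours holds HK2 as higher. The cause of this difference from the study was not tested.

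**Figure D2:**
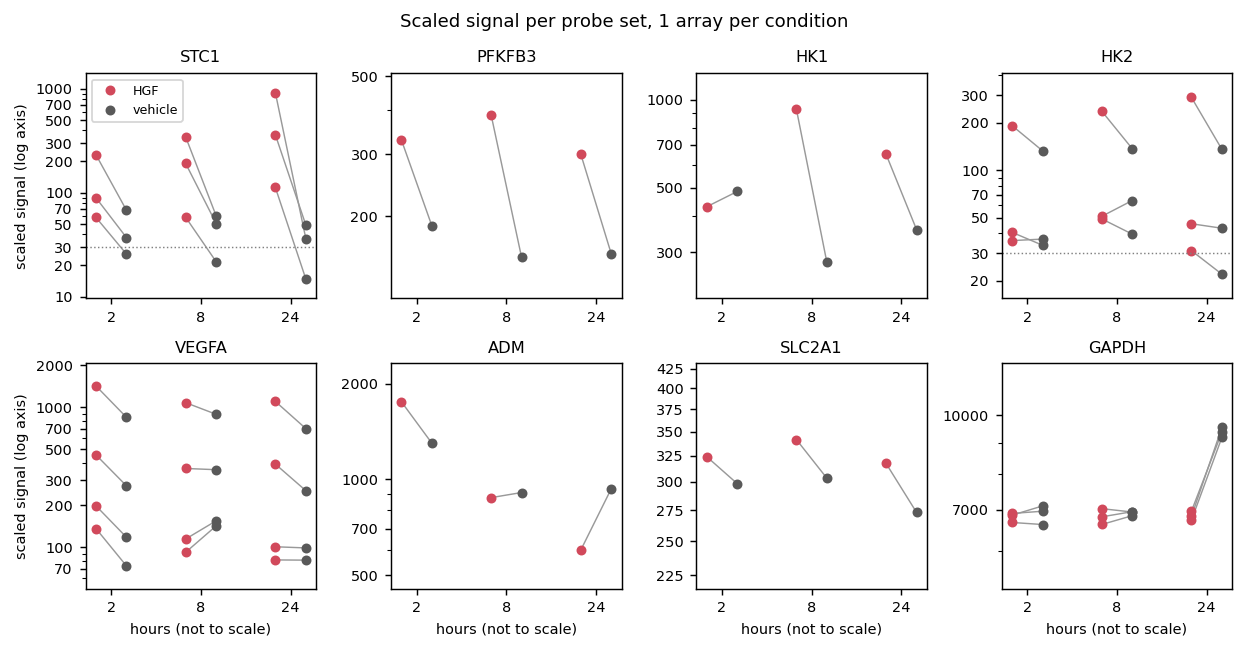
Scaled signal (y axis, log scale, range set per gene) of each measured probe set of 8 genes by time in hours (x axis, evenly spaced) with HGF (red) and vehicle (grey), a line joining the pair of arrays of a time. Points are single arrays, and dots mark the floor at 30. PFKFB3 reads 300.9 to 389.2 in the HGF arrays and 153.3 to 188.1 in the vehicle arrays, whereas the 3 GAPDH probe sets stand apart only in the vehicle array of 24 hours.

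The 8 measured preparatory enzymes (HK1, HK2, GPI, PFKL, PFKM, PFKP, ALDOA and TPI1) were all above 0 at 8 hours, with a median log2 ratio of 0.54 and a range from 0.15 to 1.74. Of all genes above the floor 45.3% were above 0 at that time, with a median of -0.02. At 2 hours 3 of the 8 were above 0 (median -0.14) and at 24 hours 5 of 8 (median 0.02). ALDOA, the aldolase that splits fructose 1,6-bisphosphate, and HK1 were the 2 that passed the rule. The brightest ALDOA probe set read 4634, 5861 and 5095 with HGF, against 4674, 4167 and 5613 with vehicle. The dimmest read 583.1, 1045 and 765.7 with HGF, against 559.8, 402.0 and 517.3 with vehicle. ALDOA thus passed at 8 hours through its dimmest probe set, with a log2 ratio of 1.38 beside 0.49 and 0.58 on the bright ones. GPI, the isomerase that turns glucose 6-phosphate into fructose 6-phosphate, read 1569, 2409 and 1411 with HGF, against 1738, 1360 and 1792 with vehicle. TPI1, which interconverts the triose phosphates, read 2742, 4387 and 3409.7 with HGF, against 2781, 2398 and 3303 with vehicle on its brighter probe set. The platelet-type phosphofructokinase PFKP read 1613, 2739 and 2182 with HGF, against 1587, 1561 and 2113 with vehicle at 2, 8 and 24 hours. GPI, TPI1 and PFKP show the same course, a high value in the HGF array of 8 hours with a difference of at most 0.34 on the log2 scale at the other times. PFKL and PFKM, the liver and muscle forms of phosphofructokinase, stayed between -0.32 and 0.22 at all times.

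Part of the 8 hour difference lay in the vehicle array of that time. Without HGF, 6 of the 8 preparatory enzymes were below 0 for 8 over 2 hours (median -0.25) and 7 of 8 above 0 for 24 over 8 hours (median 0.24). With the vehicle arrays of 2 and 24 hours as comparator, 7 of the 8 were above 0, with a median of 0.44. Under quantile normalization all 8 were above 0, with a median of 0.60 beside 0.06 for all genes. Probe sets as bright as those of GPI and PFKP, or the brightest of ALDOA and TPI1, moved up at 8 hours as well. All probe sets had a median of 0.15 between 1000 and 3000 and 0.12 at 3000 or more. The probe sets of the whole list had medians of 0.49 and 0.30 there. Between 300 and 1000, the range of HK1, the median of all probe sets was -0.05, and that of the list 0.49. Between 100 and 300, the range of the brightest HK2 probe set, these medians were -0.21 and 0.26. The part of the signal level in the 8 hour ratios was not tested.

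**Figure D3:**
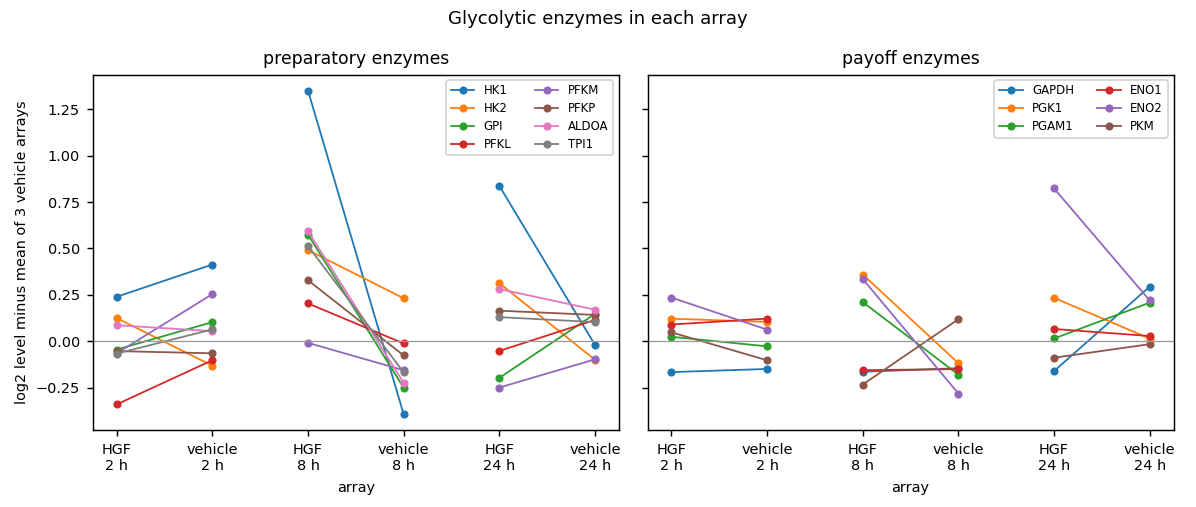
Log2 level of each measured preparatory (left) and payoff (right) enzyme of glycolysis in each of the 6 arrays (x axis), minus the mean of its 3 vehicle arrays (y axis), with a line joining the HGF and the vehicle array of a time. All preparatory enzymes but PFKM stand high in the HGF array of 8 hours and most of them low in the vehicle array of 8 hours, while ENO2 is highest in the HGF array of 24 hours.

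The 6 payoff enzymes moved less evenly as means over probe sets, with 3 above and 3 below 0 at 8 hours (median 0.19). The 3 below were GAPDH (-0.02), ENO1 (-0.01) and PKM (-0.35). On the brightest probe set of each gene, the 6 ratios at 8 hours lay between 0.02 (GAPDH) and 0.77 (PGK1). PGK1, the kinase of the first ATP-yielding step, read 3348, 4513 and 3990.4 with HGF, against 3350.1, 2645 and 3414 with vehicle on its brightest probe set. Its 4 probe sets over 100 had log2 ratios between 0.77 and 0.84 at 8 hours and between 0.23 and 0.54 at 24 hours, while the 2 near the floor did not follow, which held the gene at 0.48 and 0.22. ENO2, the neuronal enolase, read 79.2, 84.9 and 119.1 with HGF, against 70.3, 55.3 and 78.4 with vehicle. Its HGF arrays lay above all vehicle arrays, by a narrow margin of 79.2 against 78.4, with log2 ratios of 0.17, 0.62 and 0.60. ENO1, the ubiquitous enolase, read 7055, 8719 and 7663 with HGF, against 7757, 6599 and 8771 with vehicle on its brightest probe set, and its groups overlap. PGAM1, the mutase before enolase, was at 0.05, 0.39 and -0.19. PKM, pyruvate kinase, read 2600.0, 3679.6 and 3094 with HGF, against 2874, 2852 and 3043 with vehicle on its bright probe set, and the dim one went the other way at 8 hours (-1.07).

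GAPDH, which is often taken as a constant, stood apart in 1 array. The GAPDH probe set on which each HGF array was below each vehicle array read 6903, 6815 and 6824 with HGF, against 6960.2, 6949 and 9548 with vehicle. The 3 probe sets had log2 ratios between -0.48 and -0.43 at 24 hours, and the array's own GAPDH controls, which were left out of the gene's mean, between -0.43 and -0.34. The HGF arrays of 2, 8 and 24 hours agree within 6815 and 6903, so the difference sits in the vehicle array of 24 hours. All probe sets with a signal of 3000 or more had a median of -0.17 at 24 hours, and GAPDH was at -0.19 under quantile normalization and at -0.01 relative to the vehicle arrays of 2 and 8 hours.

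**Figure D4:**
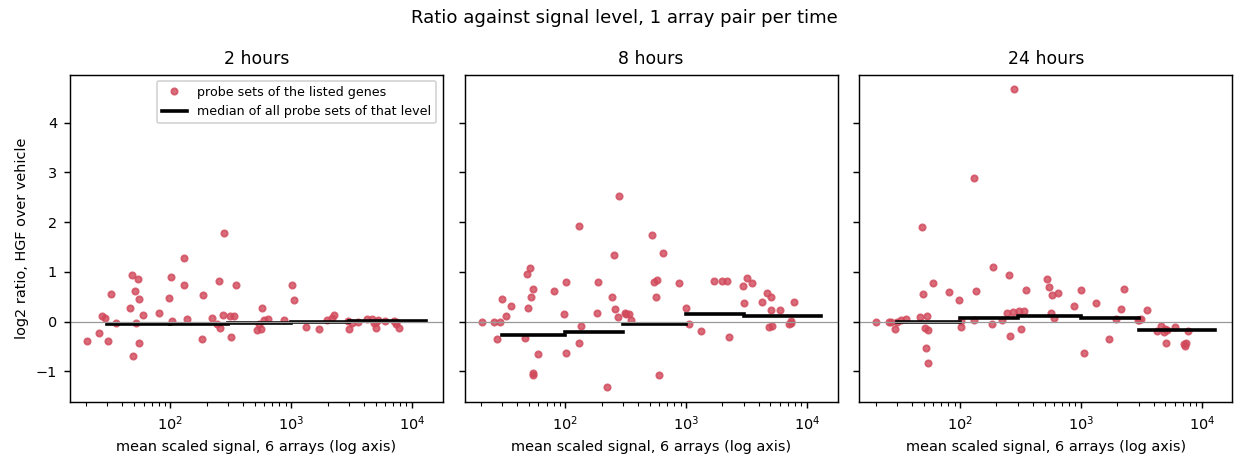
HGF over vehicle as a log2 ratio (y axis) against the mean scaled signal over the 6 arrays (x axis, log scale) for the 64 measured probe sets of the listed genes (red) at 2, 8 and 24 hours, with the median of all probe sets in 5 ranges of signal (black lines). At 24 hours probe sets of 3000 or more have a median of -0.17, and at 8 hours the median is lowest in the dimmest range (-0.27) and highest between 1000 and 3000 (0.15).

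Of the genes that steer pyruvate, LDHA, which reduces pyruvate to lactate and is a textbook HIF target, read 6016, 6464 and 5757 with HGF, against 5955, 5495 and 6189 with vehicle. LDHB was at 0.00, -0.10 and -0.19 and LDHA at 0.01, 0.23 and -0.10, so neither passed the rule at any time. PDK1, which inhibits pyruvate dehydrogenase, read 156.1, 121.4 and 156.9 with HGF, against 149.8, 129.0 and 103.1 with vehicle on its brighter probe set at 2, 8 and 24 hours. PDK3, another of these kinases, read 58.5, 31.7 and 33.4 with HGF, against 79.2, 64.8 and 59.7 with vehicle on its brightest probe set. On this probe set each HGF array was below each vehicle array, with log2 ratios of -0.44, -1.03 and -0.84, and PDK3 passed as lower at 8 hours when only the brightest probe set was used. The next brightest overlapped, with 54.9, 50.8 and 46.3 in HGF arrays against 55.8, 36.1 and 66.5 in vehicle arrays, and over all probe sets the gene's log2 ratios were -0.14, -0.11 and -0.27.

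Of the HIF regulators, HIF1A, the oxygen-regulated subunit, read 2328, 2022 and 2848 with HGF, against 2134, 2516 and 1811 with vehicle. The log2 ratio at 24 hours was 0.65, which is past 0.5 but under 2-fold, and 0.30 against the vehicle arrays of 2 and 8 hours. HIF1A is controlled mainly at the level of its protein, which these arrays do not measure. EGLN1, the main oxygen-sensing hydroxylase, was at 0.03, -0.10 and 0.11. Its probe sets disagreed at 8 hours, where 1 read 397.7 with HGF and 834.6 with vehicle (-1.07) and the others were at 0.16 and 0.49. EGLN3, a hydroxylase that HIF itself induces, had a highest scaled signal of 19.4 and was under the floor in every array.

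The HIF targets differed among themselves in direction and time. Of the 8 measured ones, 6 were above 0 at 2 hours, 4 at 8 hours and 6 at 24 hours, with medians of 0.20, 0.04 and 0.25, and only STC1 passed as higher. VEGFA, the angiogenic growth factor, read 1417, 1078 and 1100.2 with HGF, against 846.5, 890.1 and 703.8 with vehicle on its brightest probe set. This probe set and the next brightest had all HGF arrays above all vehicle arrays. All 4 VEGFA probe sets agreed at 2 hours, with log2 ratios between 0.73 and 0.89, which is close to but under 2-fold. They split in direction at 8 hours, between -0.63 and 0.28. At 24 hours all 4 were above 0 again, between 0.01 and 0.64. ADM, the vasodilator peptide adrenomedullin, read 1754, 876.4 and 599.0 with HGF, against 1299, 909.3 and 933.4 with vehicle. Its log2 ratio was 0.43 at 2 hours and -0.64 at 24 hours. NDRG1, a stress-responsive suppressor of metastasis, read 430.4, 704.7 and 773.2 with HGF, against 448.2, 406.5 and 475.3 with vehicle. Its ratios of 0.79 at 8 hours and 0.70 at 24 hours were both under 2-fold, and the vehicle arrays stayed between 406.5 and 475.3. BNIP3, a mitophagy receptor and strong HIF target in many cells, read 1504, 1046 and 1460.5 with HGF, against 1619, 1193 and 1129 with vehicle on its brighter probe set. The log2 ratios of BNIP3 were -0.13, 0.15 and 0.27, and its groups overlap. HMOX1, the heme oxygenase that stress induces, read 343.9, 280.5 and 236.4 with HGF, against 313.3, 264.3 and 208.2 with vehicle. Of the 7 probe sets of CA12, a membrane carbonic anhydrase, 6 were under the floor in all arrays, and the last had a highest signal of 35.2.

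Over the 3 times together, 6 of the 32 measured genes (SLC2A1, SLC2A3, PFKFB3, PGK1, ENO2 and STC1) had all 3 HGF arrays above all 3 vehicle arrays, and GAPDH had all 3 below. These are means over probe sets. Of all genes above the floor, read as such means, 4.77% were above and 4.27% below in this way. Of the single probe sets of the list 13 of 64 were above, 3 below and 48 overlapped. The share over all single probe sets was not computed, and the shares of genes are no measure for that count. Among the gene means of the list the margins were narrow except for PFKFB3 and STC1. The lowest HGF against the highest vehicle log2 level was 5.45 against 5.44 for SLC2A3 and 8.61 against 8.60 for PGK1. It was 6.31 against 6.29 for ENO2 and 6.61 against 6.58 for SLC2A1, beside 8.23 against 7.56 for PFKFB3 and 6.73 against 5.49 for STC1. For GAPDH the highest HGF level was 12.74 and the lowest vehicle level 12.75. For a gene with such a separation an exact two-sided permutation test of 3 against 3 arrays gives p = 0.1, the smallest of that test. It treats the 3 times as exchangeable and ignores the pairing by time. A permutation within pairs could not reach a p as small. In limma with the time point as a block, fitted to 10002 genes and all 6 arrays, 0 of the 32 genes passed an adjusted p of 0.05, beside 0.0% of all genes in either direction. At an unadjusted p of 0.05 limma gave 3 of the 32 as higher and 0 as lower, beside 2.55% and 1.48% of all genes. They were PFKFB3 (log2 ratio 1.03, standard error 0.16, limma adjusted p = 0.694), STC1 (2.09 on the floored values, standard error 0.37, adjusted p = 0.709) and ENO2 (0.46, standard error 0.16, adjusted p = 0.912). Each was higher in 3 of 3 pairs of arrays. HK2 (0.31, standard error 0.13) and SLC2A3 (0.43, standard error 0.18) came next, with a limma adjusted p of 0.912 each. When each gene was read on its brightest probe set only, limma at an unadjusted p of 0.05 gave 5 genes of the list as higher (STC1, PFKFB3, HK2, VEGFA and HK1) and 1 as lower (PDK3), beside 2.71% and 2.28% of all genes, and ENO2 was not among them. The smallest limma adjusted p was then 0.172, for STC1. The pairs of different times take the place of replicates in this fit, so a response that differs between times enters the error.

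Within the HGF arrays alone, STC1 and HK1 passed the rule as higher and ADM as lower for 8 over 2 hours, beside 3.68% and 8.4% of the measured genes. For 24 over 2 hours STC1 passed as higher and ADM as lower, beside 1.5% and 3.11%, and for 24 over 8 hours STC1 alone as higher and 0 as lower, beside 4.24% and 2.19%. The log2 ratios of STC1 were 1.66 for 24 over 2 hours and 1.10 for 24 over 8 hours, and that of ADM was -1.55 for 24 over 2 hours. Vehicle arrays were at -0.48 for ADM over the same interval, the same direction at a smaller size.

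The limma fit also compared the times over HGF and vehicle arrays together, as 2 arrays per time. Of the 32 genes 0 passed an adjusted p of 0.05 in either contrast, beside 0.0% of all genes. At an unadjusted p of 0.05 ADM and HMOX1 were lower for 24 over 2 hours and 0 genes of the list higher, beside 2.5% and 1.06% of all genes. For 8 over 2 hours ADM was lower and 0 were higher, beside 0.81% and 1.43%. ADM was at a log2 ratio of -1.01 (standard error 0.29, limma adjusted p = 0.963) for 24 over 2 hours and HMOX1 at -0.57 (standard error 0.15, limma adjusted p = 0.963). Both ADM arrays of 24 hours (599.0 with HGF and 933.4 with vehicle) were below both of 2 hours (1754 and 1299). ENO2 was the next by p, at 0.37 (standard error 0.19), before NDRG1 (0.47) and STC1 (0.74). For 8 over 2 hours BNIP3 (-0.42), HK2 (0.36), SLC2A3 (-0.49) and HMOX1 (-0.27) followed ADM (-0.76), with a limma adjusted p of 0.998 each.

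Of 67 further genes of the same pathways that are not on the list, 63 had a probe set and 46 were measured. By the same rule 2 were higher (0.769% of the background) and 0 lower (0.102%) at 2 hours, 3 higher (4.92%) and 6 lower (14.6%) at 8 hours, and 1 higher (1.89%) and 0 lower (1.02%) at 24 hours. Under quantile normalization 6 were higher and 5 lower at 8 hours, beside 10.1% and 9.25% of the background. ANGPTL4, a secreted inhibitor of lipoprotein lipase and a HIF target, passed at all 3 times, with log2 ratios of 1.89, 2.34 and 1.44. Its brighter probe set read 493.3, 745.3 and 393.8 with HGF, against 129.1, 140.1 and 126.9 with vehicle. BHLHE40, a transcriptional repressor that hypoxia and growth factors induce, passed at 2 and 8 hours (1.44 and 1.17) and was at 0.44 at 24 hours. The genes lower at 8 hours included the HIF targets PLOD2, a collagen lysyl hydroxylase (-1.42), INSIG2, a brake on sterol synthesis (-1.69), ERO1A, the oxidase that forms disulfides in the endoplasmic reticulum (-1.11), and the mitophagy receptor BNIP3L (-0.84). JMJD6, a dioxygenase of the nucleus, passed as higher at 8 hours (0.52). Between vehicle arrays PLOD2 was at -0.92, INSIG2 at -0.94, ERO1A at -0.67 and BNIP3L at -0.60 for 24 over 8 hours. For 8 over 2 hours their vehicle values, in the same order, were 0.33, 0.02, 0.23 and 0.12, so the vehicle array of 24 hours was the low one. That array does not enter the ratios of 8 hours. Within the HGF arrays the values for 8 over 2 hours, in the same order, were -1.12, -1.34, -0.71 and -0.59. The transferrin receptor TFRC (-0.68) and the HIF subunit EPAS1 (at most -0.52) were the other genes that passed as lower. Of 15 measured further genes of glycolysis and pyruvate metabolism, 0 passed at any time, with medians of -0.02, -0.02 and -0.06. Under quantile normalization 2 of the 15 passed as higher at 8 hours, beside 10.1% of the background, with a median of 0.16. With centred ratios 1 of the 15 did, beside 6.71% of the background, with a median of 0.02.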

How the data were processed

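The authors hybridised labelled RNA of HGF-treated and vehicle-treated DU145 cells to Affymetrix U133plus2.0 arrays and deposited 1 MAS5 intensity per probe set and array. The methods also name RMA quantile normalization, a mean of 150 and a floor of 30, none of which can be seen in the deposited values. The mean and the floor were therefore applied here, with 150 as the common array mean and 30 as the lowest value, before the log2 transformation. Genes were named through the platform annotation (41097 of 54675 probe sets with 1 symbol, 1801 with several, 11777 unnamed here). The selection rule is the one the study describes for 24 hours, applied here at each time and between times. It did not return the study's list in full, as HK2 is in that list and did not pass here. STC1 and ANGPTL4, which passed as higher at 24 hours here, are in the study's list as higher too. limma 3.58.1 (R 4.3.3) was fitted with terms for time and agent and Benjamini-Hochberg adjustment over 10002 genes, and was tested on simulated data. Genes were named by rule when they passed the selection, had the 5 smallest p per contrast or were the brightest of their role, with at most 8 further genes by size. Others, such as JMJD6, PDK3, PFKFB4 and EGLN1, were named after their values were seen. The genes, lists and alternatives were chosen with earlier results of these data known. With 1 array per condition, the number of arrays limits the precision. The limma p-values set an effect against the variation between the pairs of arrays of different times, as there is no replicate error.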

Additional observations from a re-analysis of the deposited data

Results flagged for a closer look

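The genes HK1, GPI, HIF1A, NDRG1 and ADM, each read on 1 probe set only, differed in direction between times. The rule set no lower limit on the size of the opposite ratio. The difference between times was not tested, since each time has 1 pair of arrays. HK1 had a log2 ratio of HGF over vehicle of -0.17 at 2 hours, with 1.74 at 8 hours and 0.86 at 24 hours. GPI was at -0.15, 0.82 and -0.34 in that order. HIF1A was at -0.31 at 8 hours and 0.65 at 24 hours. NDRG1 was at -0.0585 at 2 hours, 0.79 at 8 hours and 0.70 at 24 hours. ADM was at 0.43 at 2 hours and -0.64 at 24 hours. With vehicle averaged over the other 2 times, the signs no longer differed for HK1 (0.45, 1.15 and 0.83) and HIF1A (0.13, 0.04 and 0.30), whereas GPI (0.01, 0.45 and -0.12), NDRG1 (-0.03, 0.61 and 0.86) and ADM (0.93, -0.33 and -0.86) still had both signs.

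The 2 probe sets that the annotation assigns to both SLC2A3 and SLC2A14 were used in no comparison. On the first the lowest HGF signal was 41.09, against a highest vehicle signal of 40.95, so the groups nearly touch. On the second the signals were 46.4, 30.1 and 34.5 with HGF, against 48.1, 27.5 and 31.7 with vehicle, and the groups overlap.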

How the results depend on the processing

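With no floor the listed genes called lower numbered 2, 6 and 2 at 2, 8 and 24 hours (6.76%, 26.8% and 9.59% of the background) and those called higher at 24 hours 2 (8.55%), and between vehicle arrays 2 were lower for 8 over 2 hours, 1 higher and 3 lower for 24 over 2 hours, and 1 higher and 1 lower for 24 over 8 hours (background shares between 5.24% and 17.4%). At 8 hours quantile normalization gave 0 lower (9.25% of the background) and a median log2 ratio of 0.26, centred ratios 0 lower (12.4%) and 0.27, and the brightest probe set 3 higher (4.66%), 3 lower (13.0%) and 0.32. Between vehicle arrays of 24 and 8 hours quantile normalization called 1 higher (2.01%) and centring 2 (1.54%). On the brightest probe set 2 were higher at 24 hours (1.88%). Without probe sets ending in _s_at or _x_at, the only kind STC1 has, 0 were higher at 2 hours (0.592%), 1 higher (3.96%) and 2 lower (13.7%) at 8 hours (median 0.0597), and 0 higher at 24 hours (1.7%). Against the mean of the 3 vehicle arrays 0 were lower at 8 hours (7.6%). At 3-fold 2 were higher (0.63%) and 0 lower (4.61%) at 8 hours, and with no condition on the mean 4 were lower at 8 hours (17.6%) and 2 higher at 24 hours (2.47%). Against the other 2 vehicle arrays, an alternative chosen after seeing the data, 3 were higher at 2 hours (0.945%, median 0.0740), and 3 higher (2.59%) and 0 lower (5.04%) at 8 hours. An unadjusted limma p of 0.05 called 3 genes for HGF, 2 for 24 over 2 hours and 1 for 8 over 2 hours. The other 168 values of these results stayed within 1.5 times the count or within the spread of the median, and the cause of the changes was not tested. Of the values of secondary results 68 moved and 295 did not. Over the settings the log2 ratio of SLC2A3 at 8 hours ran from 0.02 to 1.14 and that of STC2 from -1.31 to -0.25. That of PFKFB3 at 8 hours ran from 1.18 to 1.52, and that of STC1 at 24 hours from 2.48 to 4.67. In limma for HGF over vehicle, 0 listed genes passed without the replicate block for time (smallest adjusted p 0.160, with 3 genes of the series called), and 0 when the arrays of any 1 time were left out (smallest adjusted p between 0.146 and 0.548). Signals near the floor limit what SLC2A3, CA12, EGLN3, ALDOC and the dim probe sets of HK2 can show.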
